A study of Mus musculus with 9 samples.

Results

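The miR-200 family is a group of 5 related microRNAs (miRNAs), miR-200a, miR-200b, miR-200c, miR-141 and miR-429, that are characteristic of epithelial cells. All rows of the deposited table whose names belong to these 5 hairpins were taken, on both arms, which gave 8 of the 358 miRNAs measured. They comprised the 3p strand of each hairpin, here called the guide strand, and the 5p, or passenger, strand of miR-141, miR-200a and miR-200b. The 5p strands of miR-200c and miR-429 were not among the 358. Small RNA was sequenced from epididymosomes, the membrane vesicles that the epididymal epithelium releases into the lumen, of untreated inbred Swiss male mice aged 8 weeks. The vesicles came from the caput, corpus and cauda epididymis, the segments through which spermatozoa pass in this order, with 3 libraries per segment. RNA of several animals was combined for each library, and the spread between replicates is therefore that between pools. The values were CPM, the reads of a miRNA per 1000000 reads on miRNAs of its library. The libraries held between 1548581 and 11306605 such reads, and 3 reads correspond to between 0.265 and 1.94 CPM. All 8 members were above this floor in every library.

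Members of the family are known to repress the transcription factors ZEB1 and ZEB2, which themselves repress the adhesion protein E-cadherin, and the family thereby holds cells in an epithelial state. ZEB1 and ZEB2 in turn bind the promoters of the miRNA genes, so that both sides form a mutually inhibitory loop. A miRNA recognises its targets mainly through its seed, bases 2 to 8, and the guide strands of the family carry one or the other of a pair of seeds that differ at a single base.

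The guide strands are shown because their seeds and their genomic clusters are the properties by which the members were compared below. Sequences are those of RefSeq for GRCm38.p6, 5′ to 3′, and the seed is in capitals. All 8 members were matched by name.

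miR-141-3p: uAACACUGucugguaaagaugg
miR-200a-3p: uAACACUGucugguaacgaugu
miR-200b-3p: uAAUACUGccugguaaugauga
miR-200c-3p: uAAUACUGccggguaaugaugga
miR-429-3p: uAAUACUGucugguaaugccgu

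Counted from the 5′ end, C4U separates the seed of miR-141-3p and miR-200a-3p (AACACUG) from that of miR-200b-3p, miR-200c-3p and miR-429-3p (AAUACUG). Within the former seed, miR-141-3p and miR-200a-3p are identical at 20 of 22 positions and differ by A17C and G22U. Within the latter, miR-200b-3p and miR-200c-3p differ by U11G and A22G over their 22 shared positions, and miR-429-3p differs from miR-200b-3p by C9U, A19C, U20C and A22U. Such close relatives can exchange reads in counting where a read does not cover the differing bases, and how such reads were assigned is not given in the sources used here.

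The passenger strands are shown for the same comparison on the opposite arm, where miR-200a-5p and miR-200b-5p share the seed AUCUUAC and miR-141-5p has AUCUUCC.

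miR-141-5p: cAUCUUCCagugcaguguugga
miR-200a-5p: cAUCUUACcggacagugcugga
miR-200b-5p: cAUCUUACugggcagcauugga

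Seed groups and genomic clusters cut across each other. On GRCm38.p6 the miR-200b/miR-200a/miR-429 cluster spans 1846 bases of the minus strand of chromosome 4, chr4:156053905-156055750. Its 3 hairpins lie within an intron of Ttll10, and within the noncoding transcript Gm13648, of which miR-429 overlaps an exon and the others an intron. The miR-200c/miR-141 cluster spans 477 bases of the minus strand of chromosome 6, chr6:124717914-124718390. It lies between the protein-coding genes Phb2 and Ptpn6 in an intron of the noncoding gene Gm15884, and miR-141 also overlaps an exon of Gm29008. Each cluster thus encodes both seeds: miR-200a-3p carries AACACUG among neighbours with AAUACUG, and miR-141-3p and miR-200c-3p are neighbours with different seeds.

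A single library stood apart. In caput replicate 2, miR-10a-5p and miR-10b-5p took 71.3% of the reads, against 50.5% and 63.2% in the other caput libraries, and that library had the lowest CPM of every guide strand among the caput libraries. CPM values share a fixed total, so they were also rescaled by the trimmed mean of M-values (TMM), which sets the typical miRNA to no change. Over all miRNAs tested, the log2 fold change had a median of 0.47 from caput to corpus, 0.18 from corpus to cauda and 0.81 from caput to cauda with library size scaling, and -0.09, 0.08 and 0.13 with TMM normalization. Both scalings are therefore given below, and ratios between members of the same library, which no scaling alters, are given after them.

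The family accounted for 2.82% ± 0.61 (SD, n = 3) of the miRNA reads in caput epididymosomes, 7.88% ± 0.62 in corpus libraries and 5.18% ± 0.85 in cauda libraries. The share was between 2.11% and 3.19% in caput libraries, between 7.21% and 8.44% in corpus libraries and between 4.47% and 6.12% in cauda libraries, with no overlap between segments. These shares were carried by miR-141-3p, which supplied 64.6% ± 7.53 of the family's reads in the caput, 83.2% ± 2.44 in corpus libraries and 77.6% ± 3.95 in cauda libraries. By mean CPM it was the 4th most abundant of all 358 miRNAs, below miR-143-3p and above miR-148a-3p, and it ranked 7th in the caput and 4th in the corpus and in the cauda. Without miR-141-3p the other 7 members summed to 10271 ± 4019 CPM in caput libraries, 13135 ± 1029 in corpus libraries and 11381 ± 371 in cauda libraries, and the caput libraries, from 5634 to 12739 CPM, overlapped those of both other segments. In pooled vesicle preparations, fewer vesicles from a cell type and less of a miRNA per vesicle cannot be told apart.

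**Figure D1:**
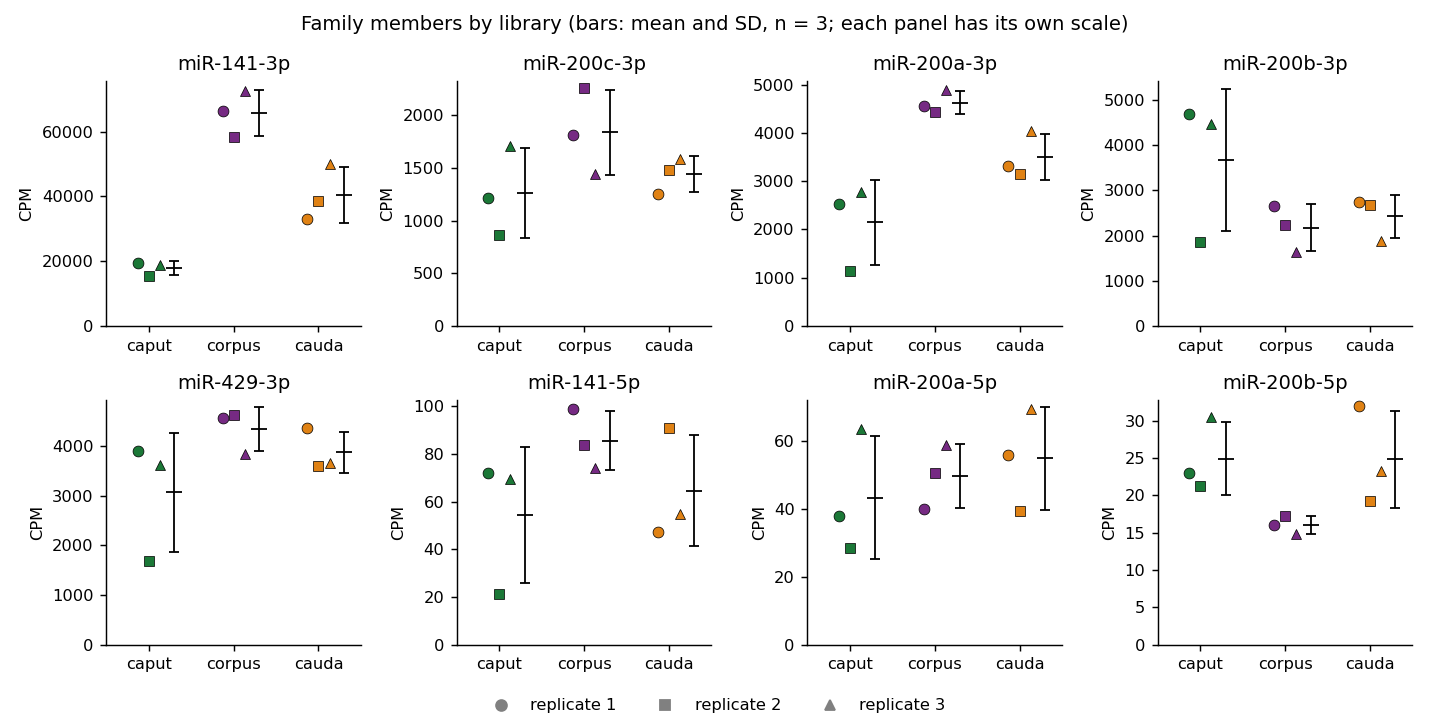
Level of each of the 8 members, in CPM on axes that start at 0, in every library of the caput (green), corpus (purple) and cauda (orange); symbols mark replicates 1 (circle), 2 (square) and 3 (triangle), and black bars the mean and SD of 3 libraries. The corpus libraries of miR-141-3p, between 58422 and 72410 CPM, lie above all others, and caput replicate 2 is the lowest caput library of each guide strand.

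The level of miR-141-3p was 19488, 15427 and 18730 CPM in the 3 caput libraries, 66249, 58422 and 72410 CPM in corpus libraries and 32901, 38547 and 49859 CPM in cauda libraries. The segments did not overlap, with the corpus highest and the caput lowest. After TMM normalization the corpus was still above both other segments, but the caput libraries, from 16086 to 32288, overlapped those of the cauda, from 30369 to 38738. These values rest on between 65837 and 410100 reads per library, so that counting error is small beside the spread between pools.

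miR-200c-3p, the neighbour of miR-141 on chromosome 6, stood at 1212, 866 and 1711 CPM in caput libraries, 1814, 2252 and 1439 CPM in corpus libraries and 1255, 1483 and 1586 CPM in cauda libraries. The libraries of all 3 segments overlapped. From caput to corpus its log2 fold change was 0.57 (SE 0.35, adjusted p = 0.246, limma) with library size scaling and -0.01 (SE 0.21, adjusted p = 0.984) with TMM normalization.

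On chromosome 4, miR-200a-3p was measured at 2528, 1147 and 2787 CPM in caput libraries, 4565, 4430 and 4889 CPM in corpus libraries and 3309, 3153 and 4034 CPM in cauda libraries. Its order was that of miR-141-3p, whose seed it shares, with every corpus library above every cauda library and every cauda library above every caput library in CPM. After TMM normalization the corpus libraries, from 3882 to 4328, were still the highest, but those of the caput, from 2394 to 3355, and of the cauda, from 2566 to 3134, overlapped (caput to cauda log2 fold change 0.12, SE 0.20, adjusted p = 0.631, limma).

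miR-200b-3p had the opposite order of means. Its caput libraries held 4676, 1862 and 4465 CPM, those of the corpus 2661, 2239 and 1632 CPM and those of the cauda 2735, 2669 and 1871 CPM. Caput replicates 1 and 3 were above all corpus and cauda libraries, and caput replicate 2 was among them.

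miR-429-3p had 3892, 1688 and 3612 CPM in caput libraries, 4560, 4630 and 3838 CPM in corpus libraries and 4353, 3604 and 3658 CPM in cauda libraries, and its segments overlapped. Its log2 fold change from caput to corpus was 0.59 (SE 0.34, adjusted p = 0.216, limma) with library size scaling and 0.01 (SE 0.24, adjusted p = 0.972) with TMM normalization.

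The passenger strands were far scarcer, and together made up 0.425% ± 0.092 of the family's reads in the caput, 0.193% ± 0.017 in corpus libraries and 0.282% ± 0.035 in cauda libraries. miR-141-5p was found at 72.1, 21.3 and 69.7 CPM in caput libraries, 99.0, 83.8 and 74.3 CPM in corpus libraries and 47.5, 91.1 and 54.9 CPM in cauda libraries. Its corpus libraries were all above its caput libraries, of which replicate 2 was far below the others. miR-200a-5p was found at 37.9, 28.4 and 63.6 CPM in caput libraries, 39.9, 50.5 and 58.8 CPM in corpus libraries and 56.0, 39.4 and 69.5 CPM in cauda libraries, and all segments overlapped. miR-200b-5p, the lowest member, was found at 23.0, 21.3 and 30.5 CPM in caput libraries, 16.0, 17.2 and 14.9 CPM in corpus libraries and 32.0, 19.2 and 23.2 CPM in cauda libraries. Every corpus library of miR-200b-5p was below every library of the other segments, but these values rest on 23 to 99 reads.

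Guide strands of 22 or 23 bases were ranked within a library by their reads, without a correction for length. Whether different strands yield reads equally was not measured, so ranks and ratios between strands, here and below, are those of reads. miR-141-3p was the highest of the 5 in 9 of 9 libraries and did not overlap any other guide strand in any segment. Below it the order changed between segments. In all 3 caput libraries it was miR-200b-3p, then miR-429-3p, then miR-200a-3p, then miR-200c-3p, although the levels of miR-200b-3p, miR-429-3p and miR-200a-3p overlapped between libraries, and those of miR-200c-3p overlapped the levels of miR-200a-3p and miR-429-3p. In the corpus and in the cauda miR-200b-3p was below miR-429-3p and below miR-200a-3p in 3 of 3 libraries, without overlap. miR-200a-3p was above miR-429-3p in 2 of 3 corpus libraries and in 1 of 3 cauda libraries, and these neighbours did not differ beyond their spread. miR-200c-3p was the lowest guide strand in 8 of the 9 libraries, the exception being corpus replicate 2, where miR-200b-3p stood at 2239 and miR-200c-3p at 2252 CPM.

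**Figure D2:**
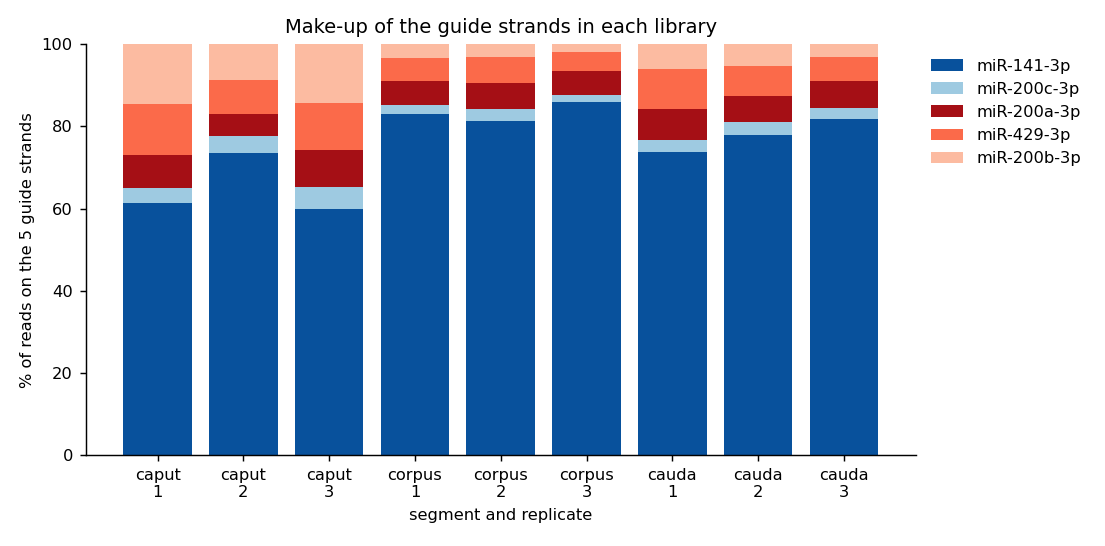
Share of each guide strand in the reads of all 5 guide strands, in percent, for each of the 9 libraries; blue shades are the miR-200c/miR-141 cluster and red shades the miR-200b/miR-200a/miR-429 cluster. miR-141-3p takes between 59.8% and 73.5% in caput libraries and between 81.2% and 86.0% in corpus libraries, and miR-200b-3p takes between 8.87% and 14.7% in caput libraries and between 1.94% and 3.33% in corpus libraries.

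The change between segments was tested with limma on log2(CPM + 1), with Benjamini-Hochberg adjustment over all miRNAs that averaged 10 CPM or more in either segment. A miRNA was called where the segments differed at least 2-fold with an adjusted p under 0.05, and all 8 members passed the filter in all 3 comparisons.

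From caput to corpus miR-141-3p and miR-200a-3p, the members that share the seed AACACUG, rose. miR-141-3p was 3.68-fold higher in the corpus (log2 fold change 1.88, SE 0.22, adjusted p = 7.59e-05) and miR-200a-3p 2.30-fold higher (log2 fold change 1.20, SE 0.35, adjusted p = 0.0195). Thus 2 of 8 members were called with library size scaling, both higher in the corpus, where 22.4% of the 321 miRNAs tested were called in either direction and 19.0% as higher. The libraries of caput and corpus did not overlap for 4 of the 8 members, against 34.9% of all tested.

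With TMM normalization the rise of miR-141-3p from caput to corpus was 2.47-fold (log2 fold change 1.30, SE 0.24, adjusted p = 0.00401) and miR-200a-3p fell short of the fold threshold (log2 fold change 0.63, SE 0.20, adjusted p = 0.0343). Under this scaling both strands of the miR-200b hairpin were called as lower in the corpus, miR-200b-3p by 2.37-fold (log2 fold change -1.24, SE 0.29, adjusted p = 0.00902) and miR-200b-5p by 2.21-fold (log2 fold change -1.15, SE 0.33, adjusted p = 0.0222). With library size scaling their log2 fold changes were -0.67 (SE 0.38, adjusted p = 0.216) and -0.59 (SE 0.41, adjusted p = 0.312), in the same direction and not called. This made 3 of 8 members called with TMM normalization, beside 28.3% of all tested in either direction and 15.3% as lower, and the libraries of 4 members did not overlap, beside 47.7%. The 95% confidence interval of the TMM value of miR-200c-3p, which was not called, ran from -0.48 to 0.46 on the log2 scale.

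The rise of miR-141-3p from caput to corpus was called without each of the 9 libraries in turn under both scalings. The rise of miR-200a-3p was lost without caput replicate 2 (log2 fold change 0.80) and without any of the 3 corpus libraries, of which the largest adjusted p was 0.0711. Without caput replicate 2, miR-200b-3p was called as lower in the corpus with library size scaling as well, by a log2 fold change of -1.098 (adjusted p = 0.0196). With TMM normalization, the call of miR-200b-3p held without each of the 9 libraries, and that of miR-200b-5p was lost without caput replicate 2, corpus replicate 1 or corpus replicate 3.

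From corpus to cauda 0 of 8 members were called by limma, while 19.0% of the 342 miRNAs tested were. miR-141-3p was the only member with an unadjusted p under 0.05, and limma-voom on reads also called 0 members. Its cauda libraries were all below its corpus libraries, with means 1.64-fold apart (log2 fold change -0.72, SE 0.22, adjusted p = 0.0345), which is under the fold threshold. With TMM normalization the difference was 1.76-fold (log2 fold change -0.82, SE 0.24, adjusted p = 0.0253), 0 members were called, beside 26.3% of all tested, and miR-200a-3p joined miR-141-3p among those with an unadjusted p under 0.05. With library size scaling the libraries of 3 members did not overlap, beside 46.2% of all tested, namely miR-141-3p and miR-200a-3p, lower in the cauda, and miR-200b-5p, higher in the cauda. With TMM normalization miR-200c-3p, lower in the cauda, was a 4th, beside 47.4% of all tested. For miR-200b-3p the log2 fold change from corpus to cauda was 0.16 with a 95% confidence interval from -0.64 to 0.97.

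From caput to cauda only miR-141-3p was called with library size scaling, as 2.24-fold higher in the cauda (log2 fold change 1.16, SE 0.22, adjusted p = 0.000637), beside 49.0% of the 349 miRNAs tested in either direction and 38.7% as higher. miR-200a-3p was 1.73-fold higher without passing the test (log2 fold change 0.79, SE 0.35, adjusted p = 0.0644), and these 2 members were those whose libraries did not overlap, beside 54.2% of all tested. The median log2 fold change of the 8 members was 0.38, and that of all tested miRNAs 0.81. With TMM normalization miR-141-3p was no longer called (log2 fold change 0.49, SE 0.24, adjusted p = 0.113). The only member called was then miR-200b-3p, which was 2.27-fold lower in the cauda (log2 fold change -1.18, SE 0.29, adjusted p = 0.00555), beside 45.3% of all tested in either direction and 20.3% as lower. The members whose libraries did not overlap were then also others, namely miR-200b-3p and miR-200c-3p, both lower in the cauda, beside 58.7% of all tested, while the libraries of miR-141-3p and miR-200a-3p overlapped. That call fell under the fold threshold without caput replicate 1 or cauda replicate 3, and the call of miR-141-3p with library size scaling held without each of the 9 libraries. miR-200c-3p, miR-429-3p, miR-141-5p and miR-200a-5p, called in neither, had positive log2 fold changes from caput to cauda with library size scaling (0.24 to 0.42) and negative ones with TMM normalization (-0.44 to -0.25).

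**Figure D3:**
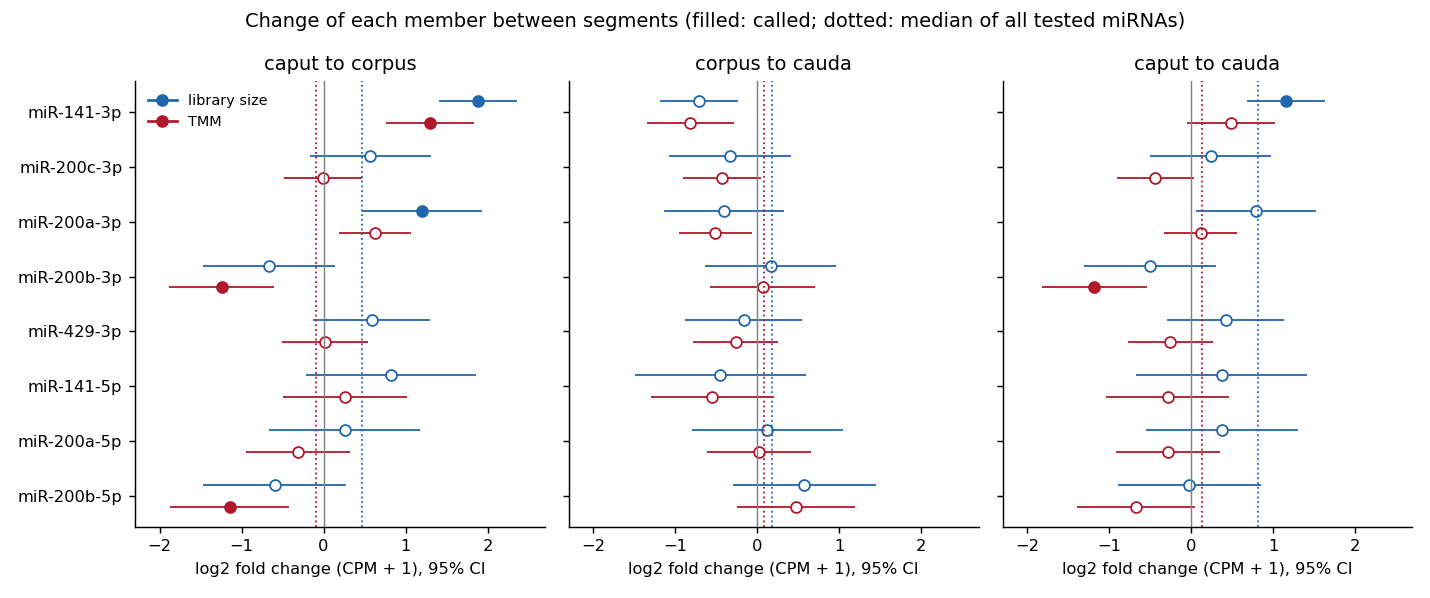
Log2 fold change of each member, on log2(CPM + 1), from caput to corpus, corpus to cauda and caput to cauda, with library size scaling (blue) and TMM normalization (red); bars are 95% confidence intervals, filled points are called, and dotted lines mark the median of all tested miRNAs. miR-141-3p lies right of the medians from caput to corpus (1.88 and 1.30), and miR-200b-3p left of them (-0.67 and -1.24).

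Ratios between guide strands within a library do not depend on its scaling. For each of the 10 pairs, the log2 ratio was compared over the 3 segments by an exact permutation test of the spread between segments, in which the segment labels were reassigned in all 280 ways. The test asks whether any segments differ and gives no direction, its smallest possible p is 0.00357, and p-values were adjusted over the 10 pairs, which share members and libraries. A test of any single pair of segments, 3 against 3 libraries, could not go below 0.10.

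All 4 pairs that contain miR-200b-3p differed between segments, and they were joined by the pair miR-141-3p and miR-200c-3p. Pairs of miRNAs outside the family were not tested, so how often such ratios differ between segments in general is not known. For 1 miR-200b-3p, the geometric mean of miR-200a-3p was 0.592 in caput libraries, 2.17 in corpus libraries and 1.46 in cauda libraries (adjusted p = 0.0357, exact permutation test), with caput libraries between 0.541 and 0.624 and all others above 1.18. These hairpins lie 695 bases apart. The ratio of miR-200b-3p to miR-429-3p, which share both cluster and seed, was 1.18 in caput libraries, 0.493 in corpus libraries and 0.620 in cauda libraries (adjusted p = 0.0357, exact permutation test). It was between 1.103 and 1.236 in caput libraries, caput replicate 2 included, and between 0.425 and 0.741 in the other 6.

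Across clusters, miR-141-3p was 5.25, 30.6 and 16.7 times as abundant as miR-200b-3p in caput, corpus and cauda (adjusted p = 0.0357, exact permutation test), and the caput libraries, up to 8.29, were below all others. The ratio of miR-200c-3p to miR-200b-3p, which share a seed, was 0.359, 0.846 and 0.600 (adjusted p = 0.0429, exact permutation test), and its caput and cauda libraries overlapped. Within the chromosome 6 cluster, whose hairpins are 336 bases apart, miR-141-3p was 14.6, 36.2 and 27.8 times as abundant as miR-200c-3p (adjusted p = 0.0357, exact permutation test). Its caput libraries ranged from 10.9 to 17.8, and those of the corpus and cauda from 25.9 to 50.3.

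The remaining 5 pairs did not pass. miR-141-3p and miR-200a-3p, of the same seed and different clusters, had a ratio of 8.86 in caput libraries, 14.1 in corpus libraries and 11.5 in cauda libraries (adjusted p = 0.123, exact permutation test). The ratio of miR-200c-3p to miR-429-3p was 0.423, 0.417 and 0.372 (adjusted p = 0.739, exact permutation test). miR-141-3p to miR-429-3p and miR-200a-3p to miR-429-3p each had an adjusted p of 0.0663 by the same exact permutation test, and miR-200c-3p to miR-200a-3p one of 0.123.

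Sorted by genomic cluster, 3 of 4 pairs within a cluster and 2 of 6 pairs between clusters had an adjusted p under 0.05, and sorted by seed, 2 of 4 pairs with the same seed and 3 of 6 with different seeds did. No share over pairs of other miRNAs was computed to set beside these counts. The number of pairs that passed went from 5 to 0 when either corpus replicate 3 or cauda replicate 2 was left out, where the smallest adjusted p was 0.0595 and 0.0536 respectively, and to 3 without caput replicate 3 or corpus replicate 1. It rose to 7 without caput replicate 2 or cauda replicate 3.

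**Figure D4:**
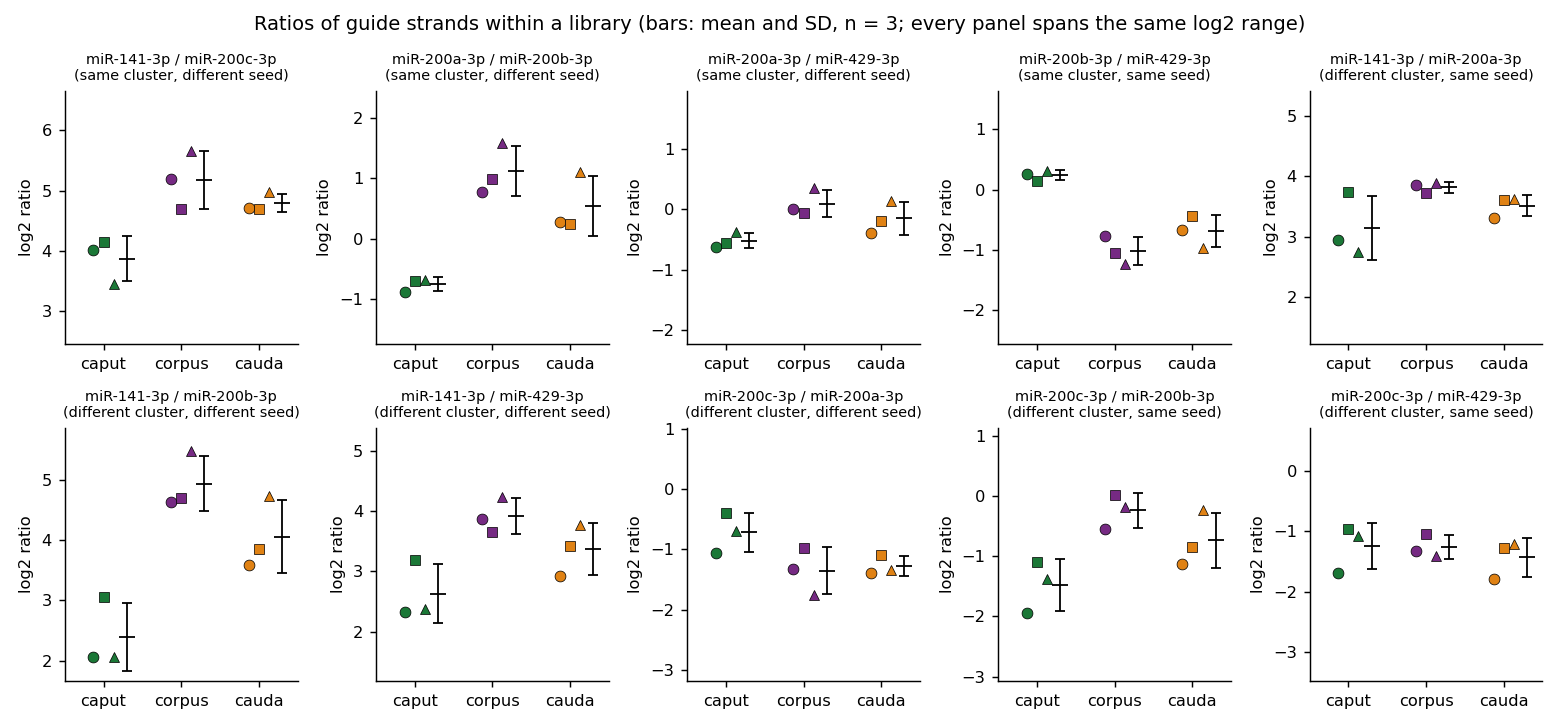
Log2 ratio of each of the 10 pairs of guide strands in every library of the caput (green), corpus (purple) and cauda (orange), with replicates 1, 2 and 3 as circle, square and triangle and the mean and SD of 3 libraries as black bars; every panel spans the same range on its log2 axis. miR-200b-3p to miR-429-3p is above 0 in the 3 caput libraries (ratio at least 1.103) and below 0 in the other 6 (at most 0.741).

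Summed by genomic cluster, the guide strands of miR-200c/miR-141 gave 19145 ± 2473 CPM (SD, n = 3) in caput libraries, 67529 ± 6604 in corpus libraries and 41877 ± 8792 in cauda libraries, and those of miR-200b/miR-200a/miR-429 gave 8885 ± 3629, 11148 ± 725 and 9795 ± 525 CPM. With TMM normalization the miR-200c/miR-141 sums were 26376 ± 8327, 60520 ± 6475 and 34691 ± 4602 in caput, corpus and cauda libraries. Those of miR-200b/miR-200a/miR-429 were 11295 ± 2981, 9994 ± 875 and 8232 ± 1187, so that their highest mean moved from the corpus to the caput. The ratio of the miR-200c/miR-141 to the miR-200b/miR-200a/miR-429 sum was 1.87, 3.47 and 1.88 in caput libraries. It lay between 5.37 and 7.13 in corpus libraries, above all caput libraries, and between 3.29 and 5.38 in cauda libraries, which overlapped both other segments. Because miR-141-3p supplies most of the sum of its cluster, this ratio mainly follows that strand.

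Summed by seed, the strands with AACACUG were 2.65 times as abundant as those with AAUACUG in the caput (geometric mean), 8.45 times in the corpus and 5.61 times in the cauda. The caput libraries, from 2.20 to 3.75, were below all corpus libraries, from 6.89 to 11.2, and below all cauda libraries, from 4.34 to 7.57. The AACACUG sum had means of 20036, 70322 and 43934 CPM in caput, corpus and cauda, and miR-141-3p 17882, 65694 and 40435 CPM. This ratio too mainly follows that strand. The summed AAUACUG strands stood at 7995 ± 3099 CPM in caput libraries, 8355 ± 1253 in corpus libraries and 7738 ± 614 in cauda libraries, with overlapping libraries. With TMM normalization they stood at 10209 ± 2435, 7491 ± 1205 and 6513 ± 1100. The caput libraries, from 8407 to 12979, were then above those of the corpus, from 6117 to 8365, and of the cauda, from 5528 to 7700. No test was made on these sums, since the members were chosen with earlier results known.

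The arms of a hairpin can also be compared within a library. The 3 hairpins with both arms in the table are shown with their mature arms in capitals, the 5p arm on the left.

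miR-141 hairpin, chr6:124717914-124717985: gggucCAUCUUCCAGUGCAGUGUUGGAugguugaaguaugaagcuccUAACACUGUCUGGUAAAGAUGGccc
miR-200a hairpin, chr4:156054896-156054985: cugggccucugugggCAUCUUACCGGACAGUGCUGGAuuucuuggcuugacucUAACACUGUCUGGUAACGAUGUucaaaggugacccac
miR-200b hairpin, chr4:156055681-156055750: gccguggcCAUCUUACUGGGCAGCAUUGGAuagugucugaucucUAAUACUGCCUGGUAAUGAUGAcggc

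All 3 are on the minus strand of GRCm38.p6. The 3p strand of miR-141 was 370, 764 and 638 times as abundant as its 5p strand in caput, corpus and cauda (geometric means). Replicates 1, 2 and 3 gave 270, 725 and 269 in caput libraries, 669, 697 and 975 in corpus libraries and 693, 423 and 907 in cauda libraries, so that caput replicate 2, at 725, lay among those of the other segments. For miR-200a the ratio was 48.4, 93.2 and 64.4, and its corpus libraries, from 83.2 to 114, were above all others. For miR-200b it was 135, 129 and 96.5, with overlap between all segments.

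Among the 64 hairpins whose arms each averaged 10 CPM or more, miR-141 had the 4th, miR-200b the 8th and miR-200a the 10th strongest excess of the 3p strand. In limma's test of the 5p to 3p ratio over these 64 hairpins, 0 of the 3 family hairpins had an adjusted p under 0.05 in any comparison. The background was 1.56% from caput to corpus, 6.25% from corpus to cauda and 15.6% from caput to cauda. From caput to corpus the log2 ratio of 5p to 3p changed by -1.05 for miR-141 (SE 0.44, unadjusted p = 0.0350, adjusted p = 0.320, limma) and by -0.95 for miR-200a (SE 0.33, unadjusted p = 0.0145, adjusted p = 0.302, limma). These were the 2 family values with an unadjusted p under 0.05, and no other tool was run on arm ratios.

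**Figure D5:**
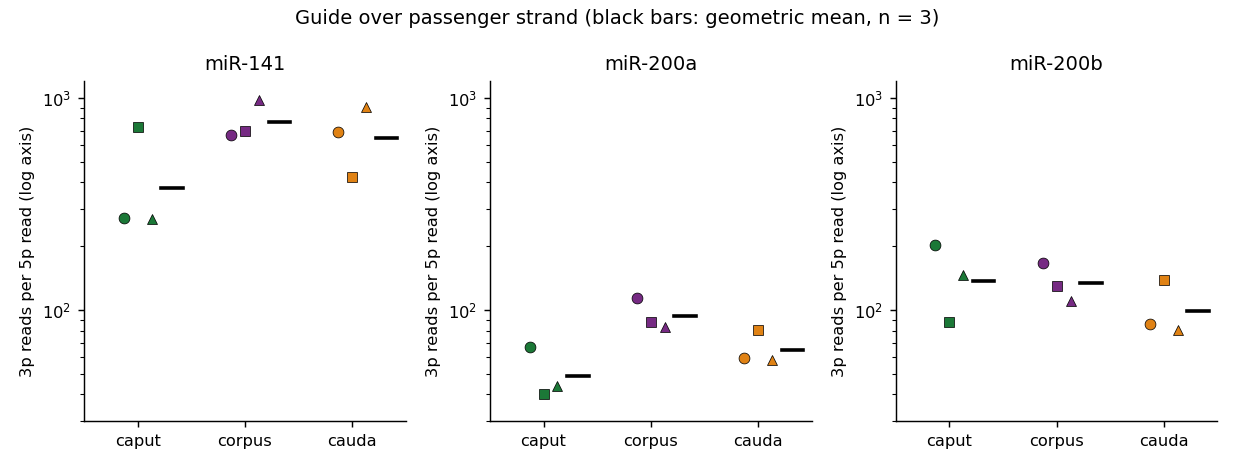
Reads of the 3p strand per read of the 5p strand, on a log axis, for the 3 hairpins with both arms measured, in every library of the caput (green), corpus (purple) and cauda (orange), with replicates 1, 2 and 3 as circle, square and triangle; black bars are geometric means of 3 libraries. miR-141 has the most uneven arms in all 9 libraries, from 269 to 975, and miR-200a the least uneven, from 40.4 to 114.

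The miRNAs outside the family whose profiles were nearest to each guide strand were found by the root mean square difference between log2 profiles over the 9 libraries, each centred on its own mean, among the 137 other miRNAs that averaged 100 CPM or more. This is a description, and all profiles share the depth and scaling of the same libraries. miR-141-3p was nearest to miR-30a-5p (0.34), then to miR-186-5p (0.42) and miR-199a-5p (0.45), and its distance to miR-200a-3p was 0.38. miR-30a-5p had 16069 ± 4433 CPM in caput libraries, 34445 ± 2055 in corpus libraries and 29557 ± 6028 in cauda libraries.

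miR-200a-3p was also nearest to miR-30a-5p (0.20), followed by miR-26b-5p (0.23) and miR-199a-5p (0.23). miR-429-3p was nearest to let-7f-5p (0.16), miR-26b-5p (0.17) and let-7g-5p (0.18), and miR-200c-3p to let-7a-5p (0.16), miR-425-5p (0.17) and miR-652-3p (0.18). The closest to miR-200b-3p were miR-181c-3p (0.30), miR-205-5p (0.33) and let-7c-5p (0.34). Its nearest profile was thus farther than those of miR-200a-3p, miR-429-3p and miR-200c-3p, but closer than that of miR-141-3p (0.34). Between miR-200b-3p and its cluster neighbours the distances were 0.84 to miR-200a-3p and 0.56 to miR-429-3p, and 1.15 to miR-141-3p. miR-429-3p and miR-200c-3p, of different clusters and the same seed, were 0.27 apart.

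Of 9 epithelium-associated miRNAs outside the family, 2 were called from caput to corpus with library size scaling, both lower in the corpus, namely miR-31-5p (log2 fold change -1.45) and miR-192-5p (-1.39). A further listed one, miR-215-5p, was not among the miRNAs measured. Of all 321 tested, 22.4% were called in either direction and 3.43% as lower. With TMM normalization 6 were called, all lower, beside 15.3% of all tested as lower. Their median log2 fold change was -0.71 with library size scaling, beside 0.47 for all tested. From corpus to cauda miR-31-5p was called as higher (1.92) and miR-375-3p as lower (-3.48) with library size scaling. Both were also called with TMM normalization (1.82 and -3.58). This made 2 of 9 under either scaling, beside 19.0% and 26.3% of all tested in either direction. From caput to cauda 3 were called, all lower, beside 10.3% of all tested as lower, namely miR-375-3p (-4.19), miR-182-5p (-1.73) and miR-183-5p (-1.44). With TMM normalization 5 were called, all lower, beside 20.3%. miR-375-3p, an epithelial and endocrine miRNA, had means of 1341, 857 and 80.1 CPM along the tract, and miR-205-5p, of stratified and basal epithelium, 1496, 1498 and 1372 CPM. The 9 together summed to between 15420 and 24428 CPM in caput libraries, 10787 and 12039 CPM in corpus libraries and 7140 and 7531 CPM in cauda libraries, with no overlap. miR-182-5p alone supplied between 51.1% and 68.5% of this sum in each library, and the other 8 summed to between 5364 and 7694 CPM in caput libraries, 4140 and 5002 CPM in corpus libraries and 3366 and 3532 CPM in cauda libraries.

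Of 8 miRNAs associated with mesenchymal cells, the cell state that ZEB proteins favour, 3 were called from caput to corpus (miR-152-3p, miR-199a-3p and miR-199b-3p), 2 from corpus to cauda (miR-143-3p and miR-145a-5p) and 6 from caput to cauda, all of them as higher in the more distal segment. Of all miRNAs tested, 19.0%, 14.0% and 38.7% were called as higher in these comparisons. TMM normalization gave 1, 2 and 5 calls, also all higher, beside 13.1%, 16.4% and 24.9% of all tested. The 3p strands of miR-199a and miR-199b have nearly the same values in every segment, 1375 and 1360 CPM in caput libraries, and cannot be counted as separate. Both are nevertheless among the 3 and the 6 calls with library size scaling and the 5 with TMM normalization. Both also enter the sum that follows, so these counts and the sum are too high to that extent. The 8 summed to between 51637 and 93791 CPM in caput libraries, 93903 and 129723 CPM in corpus libraries and 303401 and 361136 CPM in cauda libraries, most of which was miR-143-3p.

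The vesicles are labelled as epididymosomes, products of the epithelium. All 5 epithelial markers outside the family (part of the list of 9) were present in every library, and summed to between 3247 and 5206 CPM in caput libraries, 2794 and 3768 CPM in corpus libraries and 2483 and 2627 CPM in cauda libraries. Markers of other cells were present too, and none of those in the table was at 0 in all libraries of a segment. Not every listed marker was among the miRNAs measured. Absent were miR-144-5p of red blood cells, miR-206-3p and miR-499-5p of striated muscle, and miR-124-3p and miR-9-3p of neurons. The 7 of smooth muscle and fibroblasts summed to between 51021 and 91724 CPM in caput libraries, 91500 and 125858 CPM in corpus libraries and 298047 and 358899 CPM in cauda libraries. The 15 germ cell markers summed to between 376 and 1086 CPM in caput libraries, 1147 and 1304 CPM in corpus libraries and 2280 and 2760 CPM in cauda libraries, with no overlap. Sums of 4 red blood cell markers were between 223 and 848 CPM in caput libraries, 389 and 1104 in corpus libraries and 3019 and 4348 in cauda libraries, those of 4 striated muscle markers at most 197, 167 and 4146 CPM, those of 5 leukocyte markers at most 530, 1149 and 1601 CPM, and those of 2 neuronal markers at most 310, 44.7 and 82.5 CPM. In none of these sums did all corpus libraries lie above those of both other segments. A sum mainly follows its most abundant members and can hide a member with another order. An example is miR-199a-5p of the smooth muscle and fibroblast list, with means of 337, 637 and 537 CPM in caput, corpus and cauda. The part of these markers in the differences of the family was not tested.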

How the data were processed

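Small RNA of epididymosomes was measured in 9 libraries, 3 for each segment, and the segment and replicate of each were taken from the sample labels. The authors screened reads for contaminants, quantified known mature miRNAs with miRDeep2, and deposited CPM values, scaled by library size. The processing notes of the submitters name Bowtie 1.1.1 and CASAVA 1.8.2. The genome build and the miRBase release are not given in the sources used here. The table holds CPM of 358 miRNAs and no authors' comparisons. The values of each library were whole multiples of what 1 read is worth (100% of them within 0.02 reads), and depth and read numbers were inferred from these steps. Few values per library were low enough to fix a step, so these reads were not treated as deposited counts and no edgeR test was run on them. Depth differed by library, and the floor of 3 reads covers counting error only, since reads are not independent molecules.

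Tests were made with limma 3.58 in R 4.3 (lmFit and trended eBayes) after log2(CPM + 1) transformation of all 9 libraries with segment as the only factor, so that fold changes of low miRNAs are understated. The filter, the threshold and the use of limma follow the authors' methods, which name edgeR and limma. Arm ratios had a pseudocount of 0.5 CPM. P-values set the differences between segments against the spread between pooled libraries. The fit was tested on simulated data. TMM and median-of-ratios factors were computed from the recovered reads. Alternatives were other scalings, pseudocounts of 0.1 and 10, other filters and thresholds, limma-voom on recovered reads, the replicate number as a block, fits of the compared segments only, and each library left out in turn. Leaving out each library with TMM normalization was added after seeing the data.

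All rows of the family are named, with the 3 nearest profiles of each guide strand, the neighbours of miR-141-3p in rank, and the miRNAs of an epithelial and a mesenchymal list. The members and lists were chosen with earlier results of these data known. Coordinates are those of GENCODE M21, and sequences those of RefSeq, for GRCm38.p6; 299 of the 358 miRNAs had a sequence. Other computation used Python 3.11 with numpy 2.4, pandas 2.3 and matplotlib 3.10. Sperm, epithelial cell and RT-qPCR data were not analysed here.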

Additional observations from a re-analysis of the deposited data

How the results depend on the processing

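The called members changed with the scaling even where their number did not. From caput to cauda the 1 called was miR-141-3p with library size scaling and miR-200b-3p with TMM normalization. From caput to corpus TMM normalization lost miR-200a-3p and gained both strands of miR-200b. The count of called members was recomputed under other scalings, pseudocounts, filters, thresholds, a second limma method and the libraries of each comparison alone. It stayed within 1.5 times its value except as follows. A test against a fold of 2 called 1 member from caput to corpus and 0 from caput to cauda. Leaving out each library gave between 1 and 2 members from caput to corpus, with 1 without any corpus replicate. From caput to cauda it gave between 1 and 2, with 2 without caput replicate 3. With TMM normalization as well, it gave between 2 and 3 from caput to corpus and between 0 and 1 from caput to cauda, with 0 without caput replicate 1 or cauda replicate 3. The pairs of guide strands that passed ranged from 0 to 7. The causes were not tested. The directions that turned were all of members or ratios that were not called. From caput to corpus miR-200a-5p had log2 fold changes of -0.31 with TMM normalization and -0.25 with median-of-ratios scaling, and miR-200c-3p one of -0.0069 with TMM normalization. With median-of-ratios scaling, those from corpus to cauda were -0.075 for miR-200a-5p and -0.038 for miR-200b-3p. From caput to cauda, TMM normalization and median-of-ratios scaling gave -0.29 and -0.33 for miR-141-5p, -0.28 and -0.33 for miR-200a-5p, -0.44 and -0.48 for miR-200c-3p, and -0.25 and -0.30 for miR-429-3p. With each library left out in turn, log2 fold changes ran from -0.0014 to 0.57 for miR-200a-5p from caput to corpus, from -0.064 to 0.34 for miR-200a-5p and from -0.030 to 0.34 for miR-200b-3p from corpus to cauda, and from -0.19 to 0.67 for miR-141-5p, from -0.21 to 0.14 for miR-200b-5p and from -0.0058 to 0.49 for miR-200c-3p from caput to cauda. The log2 ratio of 5p to 3p ran from -0.22 to 0.39 for miR-200b from caput to corpus and from -0.039 to 0.51 for miR-141 from corpus to cauda, and the difference of the log2 ratio of miR-200c-3p to miR-429-3p between corpus and caput from -0.24 to 0.12. The replicate number as a block gave 2, 0 and 1 called members from caput to corpus, corpus to cauda and caput to cauda, as without it, and 0 arm ratios. Libraries with the same number were correlated between -0.21 and 0.41 in their deviations, over 0.1 in 6 of 9 pairs. Those with different numbers were correlated between -0.45 and 0.18, over 0.1 in 4 of 18 pairs. Whether equal numbers pair samples is not settled by these values. The main fit and the permutation test treated the libraries as unpaired. The planned edgeR tests on recovered reads were not run, since each library held too few low values to establish whole reads by the criterion set for a count test, and limma-voom was the method used on reads. Depth limits the passenger strands, of which miR-200b-5p rests on as few as 23 reads, and 3 libraries per segment limit all tests.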
